A study of Homo sapiens with 4 samples.

Results

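Retinoid signalling and metabolism was followed through 10 genes, chosen by symbol, among the 58825 genes of the deposited table. They were the retinoic acid receptors RARA, RARB and RARG, the retinoid X receptor RXRA, the carrier CRABP2, the enzymes ALDH1A3, DHRS3 and DHRS9, and the retinoid-responsive genes RARRES1 and RARRES3. All 10 symbols were found once each. The data were 4 RNA-seq libraries of HaCaT, an established line of human keratinocytes, grown in a keratinocyte medium with 1.2 mM calcium. The 2 control libraries (shNC, genotype control) came from cells given a lentivirus with a negative control hairpin, and the 2 knockdown libraries (shlnc-DC, genotype Lnc-DC knockdown) from cells given a lentivirus whose hairpin targets lnc-DC, a long noncoding RNA. The labels call both pairs biological replicates and do not say if each was transduced on its own; a p-value here covers only the spread among these libraries, which may be technical. The design text gives the purpose as finding the differentiation signature of these cells once lnc-DC is silenced.

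Cells take up retinol and oxidise it to retinal and then to retinoic acid. ALDH1A enzymes carry out the second step, while DHRS3 runs the first one backwards, and CYP26 enzymes degrade the acid. CRABP2 hands retinoic acid to receptors of the RAR family, which bind DNA as heterodimers with RXR at response elements made of repeated half-sites. In stratified epithelia retinoids favour the mucosal keratins KRT4, KRT13 and KRT19 and hold back cornification, and RARG with RXRA is the usual receptor pair of epidermis.

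The response elements of this pathway can be read in the promoters themselves. RefSeq promoter windows of 300 bases (GRCh38.p14, 250 bases before to 50 bases after a transcription start) were matched to 9 of the 10 genes, in 20 windows; RARRES3 was not matched. The windows were searched on both strands for the half-site AGGTCA and its variant AGTTCA, and for direct repeats with a spacer of 1, 2 or 5 bases, in which each unit was one of those or the variant GGGTCA or else the variant GGTTCA. The AGTTCA hit in the first RARB window is part of the repeat found there. The 2 windows shown are the one that holds a repeat, at RARB (chr3:25428013-25428312, plus strand), and that of CRABP2 (chr1:156705735-156706034, minus strand), the member with the largest fitted log2 difference in either direction. Capitals mark the 2 half-sites of the repeat.

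RARB: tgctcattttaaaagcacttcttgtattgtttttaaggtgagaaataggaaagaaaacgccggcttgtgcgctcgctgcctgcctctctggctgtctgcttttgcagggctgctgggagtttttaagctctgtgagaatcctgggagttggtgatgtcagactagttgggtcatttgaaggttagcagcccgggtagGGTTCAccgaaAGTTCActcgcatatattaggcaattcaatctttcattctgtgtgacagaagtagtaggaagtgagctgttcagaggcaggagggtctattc

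CRABP2: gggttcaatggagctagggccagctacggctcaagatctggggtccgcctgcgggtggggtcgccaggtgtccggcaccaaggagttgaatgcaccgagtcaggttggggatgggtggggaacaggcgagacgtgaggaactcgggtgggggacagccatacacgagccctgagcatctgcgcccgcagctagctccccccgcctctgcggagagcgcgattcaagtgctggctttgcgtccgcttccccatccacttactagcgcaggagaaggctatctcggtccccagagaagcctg

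The RARB window held the repeat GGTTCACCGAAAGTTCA, 2 half-sites with a spacer of 5 bases, which starts 53 bases before the annotated transcription start. Repeats with this spacer are the classical retinoic acid response element, and the one at RARB is its textbook case. It was the only direct repeat found in the 20 windows, and spacer-5 repeats were found in 31 of all 35116 windows (0.0883%). Repeats with a spacer of 1 base were found in 0.131% of all windows and those with a spacer of 2 bases in 0.0399%. The AGGTCA half-site was found in 3 of the 20 windows (DHRS3, RARB and RARA) and in 13.8% of all windows, and AGTTCA in 3 (DHRS9 and 2 of RARB) and 10.4%. Neither AGGTCA nor AGTTCA and no repeat was found in the CRABP2 window, which says nothing about elements outside it. The window does hold GGTTCA, a unit of the RARB repeat, near its upstream end. The variants GGTTCA and GGGTCA were searched only within repeats and not counted singly.

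Values were FPKM, fragments scaled to transcript length and library total, a level per length that allows genes to be set side by side. Between 22351 and 22780 genes were above 0 in a library. Read totals were not part of the table. Mitochondrial transcripts supplied 41.2% and 41.9% of all FPKM in controls, against 28.1% and 26.8% after knockdown, while the nuclear genes summed to between 187945 and 201240 FPKM in the 4 libraries. The targeted transcript, WFDC21P, was at 2.15 and 2.76 FPKM in controls, against 0.09 and 0.29 after knockdown (limma adjusted p = 0.0715). Of 15 keratinocyte markers 12 reached 1 FPKM in a group, but KRT14, KRT16 and KRT17 did not exceed 0.85 FPKM, which goes against the usual profile of the labelled line. All 5 simple epithelial markers were present. None of 10 fibroblast markers reached 1 FPKM, and of 6 melanocyte markers 1 did (MITF, 2.92 to 4.05 FPKM). Of 9 immune markers 5 were listed at 0 in all 4 libraries, among them PTPRC, CD4, CD1A and CD207, but CD68 was at 10.25 to 12.90 FPKM and CD14 at 1.0 to 3.0.

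The receptors RARG and RXRA were present in both groups, and no difference between the groups was detected for either. RARG, the main RAR of keratinocytes, was at 17.16 and 19.36 FPKM in controls, against 18.51 and 16.36 after knockdown. RXRA was at 11.63 and 10.10 FPKM in controls, against 11.38 and 9.54 after knockdown. For both genes the groups overlapped, with 1 knockdown library between the controls and 1 below both. The fitted difference, knockdown minus control on the log2(FPKM + 1) scale used for every test, was -0.06 for RARG (95% interval -0.39 to 0.27) and -0.05 for RXRA (-0.42 to 0.32). The limma adjusted p was 0.789 for RARG and 0.849 for RXRA. A change within those bounds, in either direction, is not excluded, and the bounds are not a limit of detection. The larger difference of CRABP2 (-1.43, limma adjusted p = 0.0661) also missed the threshold. For RARG the sign turned to above 0 without control replicate 2 or knockdown replicate 2. For RXRA it did so without control replicate 1 or knockdown replicate 2.

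RARA, the most widely expressed RAR, was at 4.65 and 2.74 FPKM in controls, against 6.53 and 4.2 after knockdown. The groups overlapped, since knockdown replicate 2 lay below control replicate 1. Its difference of 0.44 (95% interval -0.30 to 1.19, limma adjusted p = 0.409) was not larger than the spread between replicates. It was 0.74 without control replicate 1, 0.15 without control replicate 2, 0.18 without knockdown replicate 1 and 0.71 without knockdown replicate 2. RARB, the RAR that retinoic acid itself induces through the repeat shown above, was at 0.55 and 0.22 FPKM in controls, against 0.34 and 0.89 after knockdown, below the minimum of 1 FPKM in a group that was set for testing. Its exons overlap on the opposite strand with TOP2B, which stood at 19.33 to 24.02 FPKM. The strand setting of the authors' counting is not given in the sources used here, so low RARB values cannot be told from TOP2B reads.

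By length-corrected level RARG led the family in every library. It made up 76.7% and 86.7% of summed RAR FPKM in controls and 72.9% and 76.3% after knockdown, and RARA made up 12.3% to 25.7% over the 4 libraries. The sum over the 3 receptors was 22.3 ± 0.0283 FPKM in controls, against 23.4 ± 2.78 after knockdown (mean ± SD, n = 2 per group). RXRA supplied 50.7% to 57.0% of summed RXR FPKM and RXRB nearly all of the rest, at 9.08 ± 0.417 FPKM in controls, against 9.49 ± 0.318 after knockdown. RXRG was listed at 0 in 3 libraries and at 0.09 FPKM in control replicate 2. The order of the receptor levels in both groups was RARG, RXRA, RXRB, RARA and RARB; the ranges of RXRA and RXRB overlapped over the 4 libraries, as did no other neighbours in that order.

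**Figure D1:**
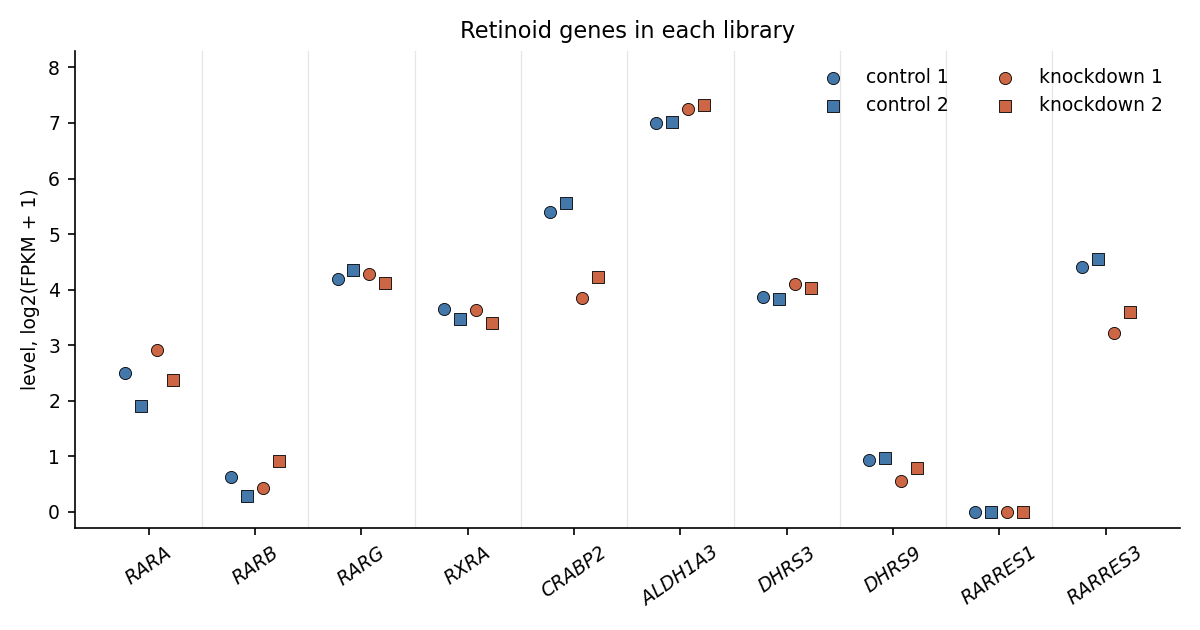
Level of each of the 10 retinoid genes as log2(FPKM + 1) on the vertical axis, with 1 point per library (circles are replicate 1, squares replicate 2; blue is control, orange is knockdown). CRABP2 and RARRES3 are lower in both knockdown libraries than in both controls, ALDH1A3 and DHRS3 slightly higher, and RARRES1 is listed at 0 throughout.

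CRABP2, the carrier that delivers retinoic acid to RARs, had the largest fitted log2 difference of the 7 tested members. It was at 41.00 and 45.90 FPKM in controls, against 13.43 and 17.82 after knockdown. The groups did not overlap; the higher of the knockdown values was below the lower of the control values. The mean was 43.5 ± 3.46 FPKM in control and 15.6 ± 3.10 in knockdown cells (SD, n = 2 per group), a 2.78-fold lower mean. The fitted difference was -1.43 (SE 0.167, 95% interval -1.87 to -0.99), rank 92 by p among 12411 tested genes. Its adjusted p by limma, 0.0661, was above the threshold of 0.05 and ranged from 0.0507 to 0.262 over 15 alternative settings, in each of which the difference kept its sign. For CRABP2 a log2 ratio of -1.48 stands in the authors' deposited table.

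The other carrier of retinoic acid was measured as well. FABP5, which delivers retinoic acid to PPARD, was at 4.84 and 5.95 FPKM in controls, against 5.48 and 8.35 after knockdown, with overlapping groups (limma difference 0.29, adjusted p = 0.476). That difference was 0.025 without knockdown replicate 2 and 0.55 without knockdown replicate 1. The FPKM of CRABP2 over that of FABP5 was 8.47 and 7.71 in controls and 2.45 and 2.13 after knockdown. This ratio is taken within a library, so the scaling of the library does not enter it. Its mean was 3.53-fold lower in the knockdown, and the ratio was chosen after the values were seen and was not tested; with 2 libraries against 2, an exact two-sided permutation test cannot give a p below 0.333. CRABP1, the other cellular retinoic acid binding protein, was listed at 0 in all 4 libraries.

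RARRES3, a phospholipase-like protein first described as induced by a synthetic retinoid in keratinocytes, was also lower. It was at 20.14 and 22.36 FPKM in controls, against 8.3 and 11.05 after knockdown, without overlap. The mean went from 21.2 ± 1.57 to 9.68 ± 1.94 FPKM (SD, n = 2 per group), 2.20-fold lower. The fitted difference of -1.07 (SE 0.164, 95% interval -1.50 to -0.64) had a limma adjusted p of 0.0803, short of the threshold, and between 0.0639 and 0.273 over the alternatives. RARRES3 is also an interferon-responsive gene. CRABP2 over RARRES3, a ratio not set in advance and not tested, was 2.04 and 2.05 in controls and 1.62 and 1.61 after knockdown. Both genes were lower in the knockdown, CRABP2 somewhat more. RARRES1, its namesake from the same retinoid screens, was listed at 0 in all 4 libraries; the table does not show whether RNA was lacking or its reads went unassigned. Its exons overlap on the opposite strand with MFSD1, at 4.77 to 7.67 FPKM.

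Among the enzymes, ALDH1A3 and DHRS3 had slightly higher values after knockdown and DHRS9 lower ones, and none passed the test. ALDH1A3, which oxidises retinal to retinoic acid, was the most abundant of the 10 genes, at 127.29 and 128.49 FPKM in controls, against 152.29 and 159.33 after knockdown. Both knockdown libraries lay above both controls, a 1.22-fold higher mean. Its difference was 0.28 (SE 0.108, 95% interval -0.00094 to 0.57, limma adjusted p = 0.22). DHRS3, which reduces retinal back to retinol and is itself induced by retinoic acid, was at 13.51 and 13.19 FPKM in controls, against 16.13 and 15.34 after knockdown. These groups did not overlap either, with a 1.18-fold higher mean and a difference of 0.22 (95% interval -0.05 to 0.49, limma adjusted p = 0.283). Nuclear genes rescaled to 1 sum gave 0.24 for ALDH1A3 and 0.18 for DHRS3, and quantile normalization gave 0.26 and 0.10. The median difference of all tested genes was 0.09 in the main fit, 0.055 with nuclear genes rescaled and 0.022 under quantile normalization.

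ALDH1A3 over DHRS3 stayed within a narrow range, at 9.42 and 9.74 in controls, against 9.44 and 10.4 after knockdown. ALDH1A3 alone made up 53.7% and 52.8% of summed FPKM of the 10 genes in control and 67.0% and 67.7% after knockdown. That share also depends on the other members. The difference in mean FPKM was -27.8 for CRABP2 and -11.6 for RARRES3, beside 27.9 for ALDH1A3. An opposite-strand gene with a clone-based name that overlaps ALDH1A3 exons did not exceed 7.69 FPKM. DHRS9, a retinol dehydrogenase of differentiating epithelium, was at 0.91 and 0.95 FPKM in controls, against 0.47 and 0.72 after knockdown, just under the minimum for testing. All of its knockdown values lay below its control values. With no filter its difference was -0.28 (95% interval -0.71 to 0.16), and that of RARB was 0.21 (-0.45 to 0.87).

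**Figure D2:**
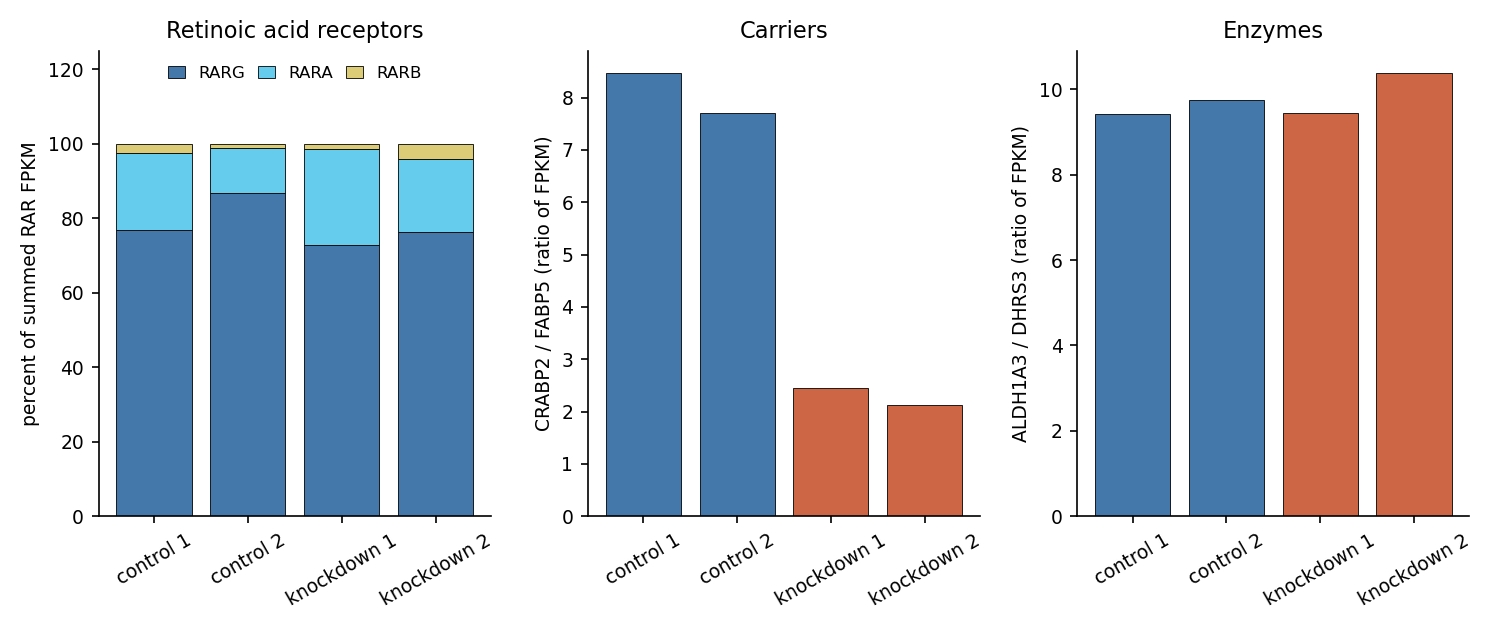
Quantities taken within each library (bars, 1 per library; blue is control and orange is knockdown in the middle and right panels). Left, the percent of summed RAR FPKM from RARG, RARA and RARB, with RARG at 72.9% to 86.7%; middle, CRABP2 over FABP5, at 8.47 and 7.71 against 2.45 and 2.13; right, ALDH1A3 over DHRS3, at 9.42 to 10.4.

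Of the 10 genes, 7 reached the filter of a mean of 1 FPKM or more in either group, and RARB, DHRS9 and RARRES1 did not. No member passed limma's test at an adjusted p under 0.05, against 31 of 12411 tested genes (0.250%; 0.113% higher and 0.137% lower). At an unadjusted p under 0.05 there were 2 of 7, CRABP2 and RARRES3, both lower, where 22.8% of tested genes did so, 8.00% lower and 14.8% higher. The groups did not overlap for 2 members on the lower side and 2 on the higher side, where 54.8% of tested genes had no overlap, 19.2% lower and 35.6% higher. A difference of -1 or below was fitted for the same 2 members and for 156 tested genes (1.26%). The median difference over the 7 genes was -0.05, beside 0.09 over all tested genes. Of the 7, 3 lay above 0 and 4 below, where 7617 of all tested genes lay above and 4794 below. The median of the 7 was 0.041 without control replicate 1, 0.019 without control replicate 2 and 0.064 without knockdown replicate 2, so its sign rests on single libraries.

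**Figure D3:**
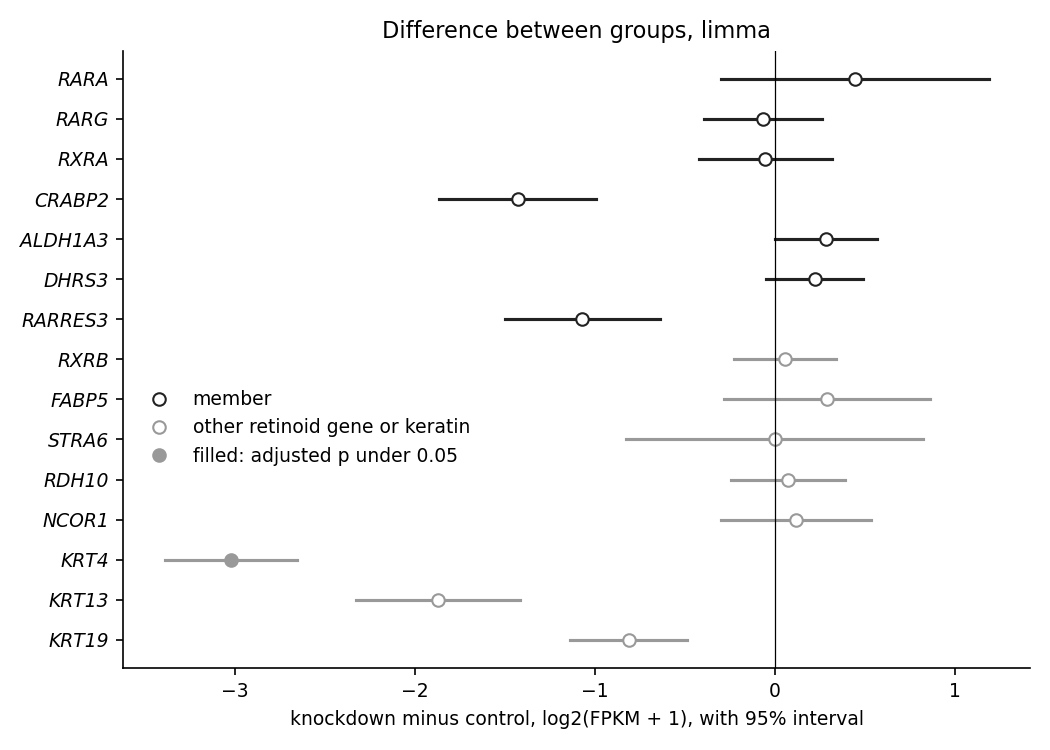
Fitted difference, knockdown minus control on the log2(FPKM + 1) scale, with its 95% interval, for the 7 tested members (black) and for other retinoid genes and 3 keratins (grey); filled points have a limma adjusted p under 0.05. The intervals of CRABP2 and RARRES3 lie below 0, those of the receptors span it, and KRT4 is the one filled point.

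The rest of the pathway was read from lists written from general knowledge. Of 35 other genes of retinoid metabolism 13 were tested, with 9 above 0, 4 below and a median of 0.05 (5 above and 8 below under quantile normalization or median centring; median -0.014 without control replicate 1); none passed at the adjusted threshold, 1 was higher and none lower at an unadjusted p under 0.05. That one was AKR1C3, an aldo-keto reductase that can also reduce retinal, at 3.36 and 3.75 FPKM in controls, against 5.84 and 6.90 after knockdown (difference 0.69, limma adjusted p = 0.102). RDH10, the retinol dehydrogenase that opposes DHRS3, was at 7.16 and 6.80 in controls, against 7.94 and 6.88 after knockdown, a difference of 0.07 (95% interval -0.25 to 0.39). PNPLA4, a retinyl ester hydrolase, had a difference of -0.31, DGAT1, which can esterify retinol, of -0.31, and CYP2S1 of 0.36, with limma adjusted p between 0.294 and 0.409. With 1 library left out, PNPLA4 ranged from -0.46 (without knockdown replicate 2) to -0.16 (without knockdown replicate 1). DGAT1 ranged from -0.49 (without knockdown replicate 1) to -0.12 (without knockdown replicate 2), and CYP2S1 from 0.13 (without control replicate 2) to 0.59 (without control replicate 1).

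The other ALDH1A enzymes and the CYP26 enzymes were scarce. ALDH1A2 was at 0.36 and 0.43 FPKM in controls, against 0.16 and 0.18 after knockdown, and ALDH1A1 did not exceed 0.20 FPKM, so ALDH1A3 was by far the leading retinal dehydrogenase of its class here. CYP26B1, an enzyme that clears retinoic acid and is induced by it, was at 0.55 and 1.3 FPKM in controls, against 0.30 and 0.22 after knockdown. All of its knockdown values were below its control values, but the gene did not reach the filter. CYP26A1, the classical induced clearing enzyme, was at 0.31 and 0.29 FPKM in controls, against 0.19 and 0.45 after knockdown. LRAT, which stores retinol as ester, did not exceed 0.15 FPKM.

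Of 15 carrier and uptake genes 4 were tested (FABP5, STRA6, SCARB1 and LRP1), 2 above and 2 below 0, and none passed. STRA6, the receptor for retinol bound to its plasma carrier, was at 7.57 and 4.04 FPKM in controls, against 6.78 and 4.55 after knockdown, where the replicates differed more than the groups. SCARB1, which takes up carotenoids among other lipids, was at 5.83 and 5.88 in controls, against 9.51 and 7.96 after knockdown (difference 0.50, limma adjusted p = 0.129). LRP1 had a difference of -0.35 (limma adjusted p = 0.428), which was -0.096 without control replicate 1 and -0.61 without control replicate 2.

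Among 19 partner and related nuclear receptors 12 were tested, 6 above and 6 below 0, with a median of -0.0098 (-0.13, with 3 above and 10 below, without control replicate 2; 0.070 without control replicate 1; 0.068 on leaving out knockdown replicate 2) and none past the threshold or an unadjusted p of 0.05. THRA, a thyroid hormone receptor, was at 6.99 and 5.42 FPKM in controls, against 4.71 and 4.0 after knockdown, and NR2F1, an orphan receptor that competes for such elements, at 7.05 and 5.57 against 4.80 and 4.82. VDR, the vitamin D receptor, was at 9.64 and 4.65 in controls, against 9.04 and 9.08 after knockdown, and its difference changed sign without control replicate 2. NR2C1 differed by -0.18, with -0.020 without knockdown replicate 2 and -0.34 without knockdown replicate 1. Of 22 coregulators 21 were tested, 17 above and 4 below 0, with a median of 0.13. Over all 12411 tested genes 7617 lay above 0 and 4794 below. Under quantile normalization 12 coregulators lay above 0 and 9 below. Their median was 0.060 without control replicate 2 and 0.30 without control replicate 1. None passed. At an unadjusted limma p under 0.05, 3 were higher and 1 lower, beside 14.8% and 8.00% of all tested genes. The corepressor NCOR1 differed by 0.12 (95% interval -0.30 to 0.53). TBL1XR1, an exchange factor of the corepressor complex, was at 5.52 and 4.42 FPKM in controls, against 6.93 and 7.67 after knockdown, and its relative TBL1X at 1.25 and 1.16 against 0.71 and 0.54. BAG1, a chaperone cofactor that binds nuclear receptors, was at 5.74 and 5.10 against 6.95 and 7.30.

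Genes that retinoids raise in epithelia were mostly lower in the knockdown. Of 35 on that list 26 were tested, with 6 above 0 and 20 below and a median of -0.25 (-0.46 without control replicate 2, -0.15 without knockdown replicate 2, -0.14 with no filter and -0.47 with a filter of 5 FPKM). Of these 2 fell past the threshold over all genes and none rose, where 0.137% of tested genes fell; at an unadjusted p under 0.05, 7 were lower and 3 higher, beside 8.00% and 14.8% of all tested genes. The list was written with earlier results of these data known, so it is no independent evidence of direction. The 2 that fell were KRT4, from 16.20 and 19.53 to 1.41 and 1.22 FPKM (difference -3.02, limma adjusted p = 0.0261), and TNFSF10, the death ligand TRAIL, which retinoic acid induces in some cells, from 37.13 and 40.00 to 7.49 and 9.93 FPKM (difference -2.04, adjusted p = 0.0438). Both calls were lost with no filter, with the replicate block and on leaving out any single library, with limma adjusted p from 0.0970 to 0.245 in these settings, and that of TNFSF10 also with overlapping genes left out (0.0502).

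The keratins closest to retinoid control had different sizes of difference. KRT13 was at 969.89 and 1070.71 FPKM in controls, against 246.59 and 312.74 after knockdown (difference -1.87, limma adjusted p = 0.0533), and KRT19 at 334.49 and 371.02 against 202.24 and 198.27 (difference -0.81, adjusted p = 0.0789). KRT7, KRT8 and KRT18 lay nearer to 0 (the plot of the retinoid-raised and retinoid-lowered lists). On the higher side, HBEGF, an EGFR ligand that retinoids induce in epidermis, was at 2.85 and 2.48 FPKM in controls, against 6.70 and 6.57 after knockdown (difference 1.06, adjusted p = 0.0655). CRABP2 and RARRES3, like KRT4, KRT13 and KRT19, were lower in both knockdown libraries than in both controls, as were 19.2% of tested genes. The 7 genes of the retinoid-raised list that were lower at an unadjusted limma p under 0.05 included IRF1 (difference -0.74), BTG2 (-0.59) and TGM2 (-0.58). The 3 higher ones were HBEGF, AREG and ICAM1 (0.52). DHRS3, which retinoids also raise, differed by 0.22 with an interval that spans 0. A link among these genes was not tested. AREG, another EGFR ligand, was at 1.96 and 1.97 FPKM in controls, against 4.82 and 4.24 after knockdown (limma adjusted p = 0.0747).

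**Figure D4:**
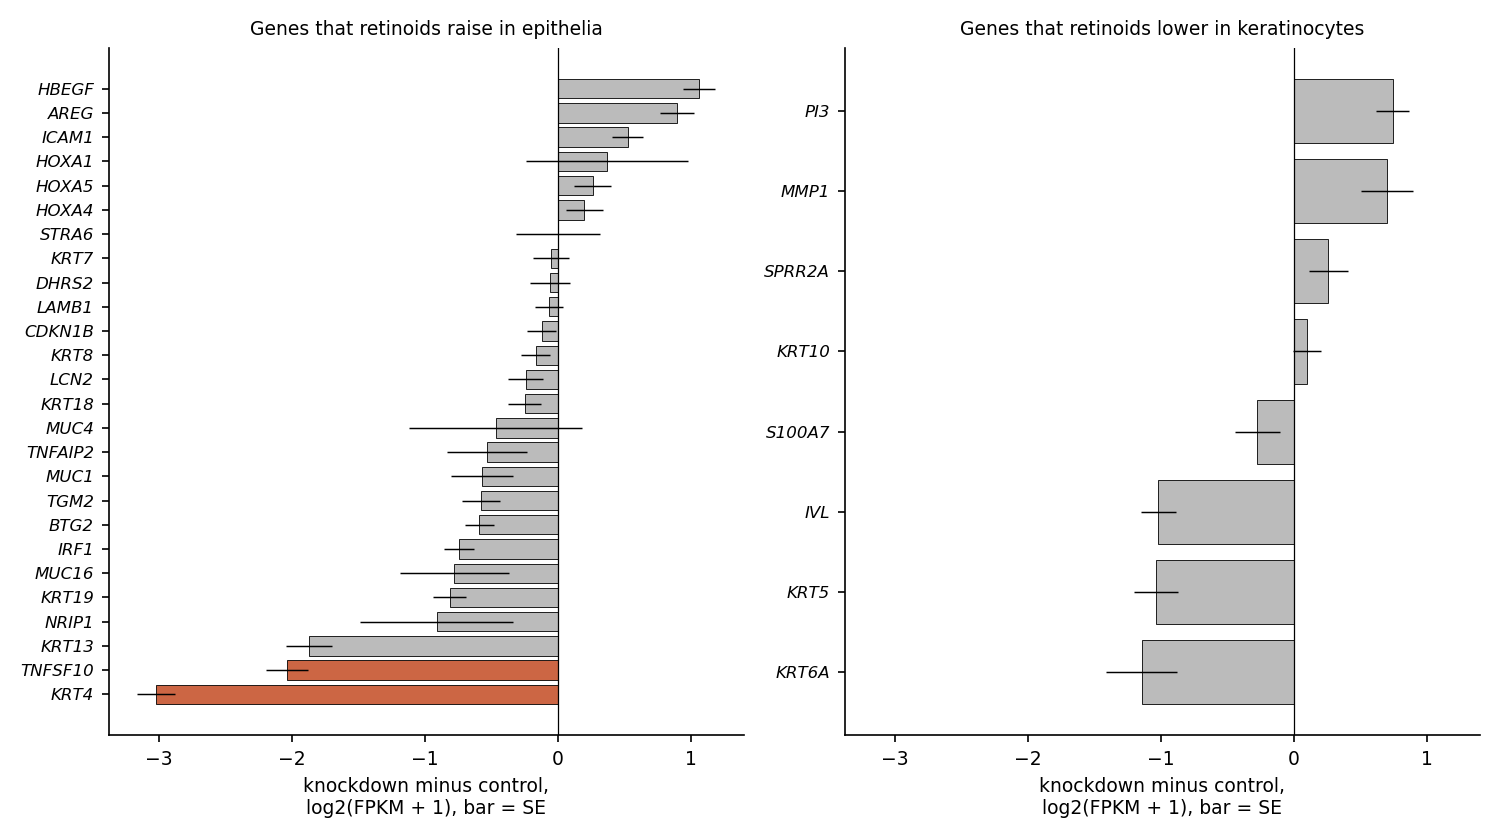
Fitted difference, knockdown minus control on the log2(FPKM + 1) scale, of every tested gene on the list that retinoids raise in epithelia (left, 26 genes) and on the list that they lower in keratinocytes (right, 8 genes); error bars are SE and orange bars have a limma adjusted p under 0.05. KRT4 and TNFSF10 are the orange bars, and both lists hold genes on either side of 0.

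Genes that retinoids lower in keratinocytes lay on either side of 0. Only 8 of 30 were tested, 4 above and 4 below 0 with a median of -0.09, and none passed. At an unadjusted limma p under 0.05, 2 were higher and 3 lower, beside 14.8% and 8.00% of all tested genes. With 1 library left out the median ranged from -0.46 (without knockdown replicate 2) to -0.021 (without knockdown replicate 1), and the stricter filter of a mean of 5 FPKM left 2 above and 4 below 0 with a median of -0.65. Involucrin (IVL) was at 8.48 and 9.99 FPKM in controls, against 3.84 and 4.23 after knockdown, KRT5 at 270.10 and 304.42 against 123.71 and 156.10, and KRT6A at 8.45 and 13.67 against 3.63 and 5.14. PI3, the protease inhibitor elafin, was higher, at 87.84 and 97.27 against 146.69 and 164.35. MMP1 was higher too, at 0.31 and 0.26 against 0.87 and 1.33 (difference 0.70), close to the minimum for testing. Of the 30 genes 8 were listed at 0 in all 4 libraries, among them KRT1, KRT2 and LOR, cornification genes that retinoids suppress. KRT10, the partner keratin of KRT1, was at 11.24 and 11.59 FPKM in controls, against 12.78 and 11.87 after knockdown (difference 0.10, 95% interval -0.18 to 0.38).

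Other values also differed between the groups. The summed FPKM of 15 keratinocyte markers was 839 and 866 in controls and 516 and 551 after knockdown. Most of that came from KRT5, with a mean of 287 in controls and 140 after knockdown, and SFN, with 305 and 170. Of 12 tested markers 10 lay below 0, PERP (0.15) and COL17A1 (0.26) lay above, and none passed the adjusted threshold. The sum of the 5 simple epithelial markers was 1081 and 1159 against 918 and 902. KRT19 had the largest part in the lower sum, with a mean of 353 in controls and 200 after knockdown. After knockdown the means of KRT7 (248) and KRT18 (231) were above that of KRT19. The fitted difference of EPCAM was above 0 (0.13). The part of these shifts, and of the lower mitochondrial share, in the differences of CRABP2 and RARRES3 was not tested. The fibroblast marker sum was 0.60 to 0.86 FPKM in the 4 libraries. In bulk RNA, fewer cells of a type and less RNA per cell cannot be told apart.

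GENCODE 29 (GRCh38) places CRABP2 on chr1:156699606-156705816 (minus strand), RARRES3 on chr11:63536809-63546462 (plus), ALDH1A3 on chr15:100877714-100916626 (plus) and DHRS3 on chr1:12567910-12617731 (minus). RARG is on chr12:53210567-53232980 (minus), RXRA on chr9:134317098-134440585 (plus) and RARA on chr17:40309192-40357643 (plus). RARB is on chr3:25174332-25597932 (plus), RARRES1 on chr3:158696892-158732696 (minus) and DHRS9 on chr2:169064789-169096167 (plus). CRABP2, RARRES3, RARG, RXRA, DHRS3 and DHRS9 share no exon with another gene on either strand in that annotation.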

How the data were processed

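The submitters' processing notes name cutadapt 1.9, HISAT2 2.0.4, StringTie 1.3.4d, edgeR and DESeq2 without saying what each did. The authors' genome build, annotation and strand setting: not given in the sources used here. Per the labels' protocols, libraries were made from oligo(dT)-purified mRNA with dUTP in the second strand and read as pairs of 150 bases. The authors deposited FPKM values with 2 decimals, a fold (ratio) column of knockdown over control mean FPKM, and its log2. The authors' deposited log2 differed by less than 0.05 from that recomputed from group means for 11905 of 11907 genes averaging 1 FPKM or more with both means above 0. Of 58825 gene IDs, 58552 were found in GENCODE 29. Columns that belong to no sample numbered 0.

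No counts are in the table. Low values of short 1-transcript genes came within 0.1 of a whole read in at most 26.0% to 27.1% of cases at the best depth, and in a median of 18.2% to 18.8% at other depths. Reads could therefore not be recovered, the depth is unknown and no count test was run.

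Values were taken as log2(FPKM + 1), which understates the change of low genes. The 12411 genes whose mean reached 1 FPKM in either group were fitted in R 4.3.3 with limma 3.58.1 (group as sole term, trended and non-robust variance; two-sided, Benjamini-Hochberg over all tested genes, threshold 0.05). The script was tested on simulated data. Folds are ratios of mean FPKM. The 15 alternatives covered pseudocount, filter, normalization, robust fitting, the replicate block, each library left out and overlapping genes left out. The members and lists were chosen with earlier results of these data known. Named genes were the 10 members, up to 4 genes with the smallest p in each of 6 lists, any gene past the threshold, KRT4, KRT13, KRT19, WFDC21P and the remaining core genes of the pathway; other genes named were chosen after their values were seen. Of the names listed, 1 was not in the table. Some genes that this rule or the lists hold are not reported here by name. Protein sequences were not analysed here.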

Additional observations from a re-analysis of the deposited data

How the results depend on the processing

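No member passed the adjusted threshold by limma under the settings of the report or in any of the 15 alternatives (2 members at an unadjusted p under 0.05, and 2 to 4 in the alternatives). Over all genes 31 were called (14 higher, 17 lower), against 0 with no filter (3876 at an unadjusted p under 0.05), 56 with the stricter filter, 57 under quantile normalization (17 higher, 40 lower; 13 and 24 under median centring), 9 with genes of same-strand overlap left out, and 0 to 0 (from 1797 to 2251 unadjusted) when any 1 library was left out; the cause was not tested. The replicate block called 0 genes over all genes (3791 unadjusted) and 0 members (4 unadjusted); same-numbered libraries deviated together with r = 0.12 across genes, and the labels give no shared source for a number. CRABP2, RARRES3, RARA, DHRS3 and ALDH1A3 kept their sign in each alternative that tested them. Signs turned for several differences near 0 and also for VDR, whose difference was 0.38. With 1 library left out in turn, RARG ranged from -0.15 to 0.021 (0.019 without control replicate 2), RXRA from -0.17 to 0.064 (0.041 without control replicate 1), STRA6 from -0.38 to 0.38 (0.24 without knockdown replicate 2), VDR from -0.081 to 0.83, RDH10 from -0.018 to 0.16 and NCOR1 from -0.064 to 0.30. STRA6 became 0.0054 and 0.0025 with pseudocounts of 0.1 and 0.5. Under quantile normalization RXRB became -0.042, RDH10 -0.030 and NCOR1 -0.0038, and under median centring RXRB became -0.022 and RDH10 -0.0067. KRT13 passed in 3 alternatives, KRT4 in 9 and TNFSF10 in 8. Depth is unknown and limits what can be said of genes under 1 FPKM.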

Other observations

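Among receptor cofactors, 2 genes differed widely between the knockdown libraries. MED1, a Mediator subunit that binds liganded nuclear receptors, was at 9.06 and 8.96 FPKM in controls, against 13.12 and 26.29 after knockdown (limma difference 0.97, adjusted p = 0.183; 0.50 without knockdown replicate 2 and 1.45 without knockdown replicate 1). NRIP1, a cofactor that retinoic acid induces and that limits receptor activity, was at 11.97 and 9.10 FPKM in controls, against 9.96 and 2.38 after knockdown, and shares exons with a clone-named gene on the same strand.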
